A study of Danio rerio with 9 samples.

Results

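The collagen genes of the zebrafish embryo were compared across 3 genotypes of npc2. Members were the rows of the deposited count table whose gene symbol, ignoring case, begins with col, a number and the letter a. This rule gave 57 of 32520 gene IDs, and all 57 carry the symbol of a collagen chain. They were sorted by collagen gene into 9 fibril IDs, 12 basement membrane IDs, 14 notochord and cartilage IDs and 22 other IDs. Type VIII was split, with COL8A1 and col8a1a in the notochord and cartilage class and COL8A2 among the others. Symbols are written as the names table gives them, some of them in human style, so that a symbol such as COL12A1 can stand for 2 zebrafish IDs.

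npc2 encodes a small lysosomal protein that binds cholesterol and hands it to the membrane protein Npc1 for export. Homozygous embryos were labelled MZnpc2m/m, heterozygous embryos Mnpc2+/m and wild-type embryos npc2+/+. In zebrafish notation M and MZ mark loss of the maternal product and of the maternal and zygotic products, so both mutant groups share mutant mothers. PolyA RNA was sequenced from whole embryos at 30 hours after fertilization, with 30 embryos in each pool and 3 pools for each genotype. Homozygous and heterozygous embryos were siblings sorted by phenotype, whereas wild-type embryos came from other parents, themselves siblings of the mutants' parents. Genotype and cross, and any effect of the mother, therefore cannot be told apart in either comparison with wild type. The pools were separate, but no clutch or day is named, so that the p-values measure the spread between pools.

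Collagens are secreted proteins in which 3 chains wind into a triple helix. Fibril-forming types give tissues tensile strength, type IV and its partners form the sheet of the basement membrane, and types II, IX and XI build the notochord sheath and cartilage. Chains are hydroxylated and folded in the endoplasmic reticulum, exported in large carriers, trimmed, crosslinked outside the cell, and bound by integrins. In the zebrafish embryo the notochord sheath, basal epidermis, fin fold and sclerotome-derived fibroblasts are known sources of collagen.

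Total counts per pool lay between 38564405 and 69360234. Collagen genes took 1.02 to 1.16% of the counts of a pool. The NPC2 row ENSDARG00000090912 had 34.1, 32.6 and 44.3 CPM in homozygous pools, 144, 146 and 142 CPM in heterozygous pools, and 264, 256 and 278.5 CPM in wild-type pools, with no overlap between genotypes. A second NPC2 row, ENSDARG00000096979, lay between 0.869 and 2.28 CPM in every pool and was lower in homozygous against wild-type embryos at -0.69 ± 0.25 (edgeR adjusted p = 0.0337). Levels are given below as CPM, a gene's counts relative to the total of its pool, scaled by TMM. Differences are log2 fold changes ± SE from edgeR's quasi-likelihood fit over 20375 genes in all 9 pools. A gene was called at a Benjamini-Hochberg adjusted p under 0.05, and SDs and SEs rest on 3 pools per genotype. In whole embryos, fewer cells of a type and less RNA per cell cannot be told apart.

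Of the 57 collagen IDs, 52 passed the filter on low counts. In homozygous against wild-type embryos, 5 collagens were higher, 24 were lower and 23 were not called. This is 55.8% of the 52, beside 44.5% of all genes tested, of which 23.5% were higher and 21.1% lower. The median log2 fold change was -0.13 over the collagens and 0.02 over all genes tested. In heterozygous against wild-type embryos, 10 collagens were higher and 8 lower, or 34.6% beside 29.8% of all genes, of which 15.5% were higher and 14.4% lower. Here the medians were -0.00 for collagens and 0.00 for all genes, and the collagens were nearly balanced in direction. Between homozygous embryos and their heterozygous siblings, 2 collagens were higher and 26 lower, or 53.8% beside 39.8% of all genes, of which 20.4% were higher and 19.4% lower. That median was -0.17 for collagens and 0.01 for all genes. Lower values thus outnumbered higher ones in both comparisons with homozygous embryos. Counted without a test, all 3 homozygous pools lay above all 3 wild-type pools in 5 collagens and below them in 24, beside 28.6 and 25.3% of all genes (53.9% in either direction). Heterozygous pools lay above wild-type pools in 16 and below them in 10, beside 21.8 and 20.9% (42.7%). Homozygous pools lay above heterozygous pools in 3 and below them in 30, beside 26.5 and 24.7% (51.2%). The comparisons share libraries and are not independent of each other.

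**Figure D1:**
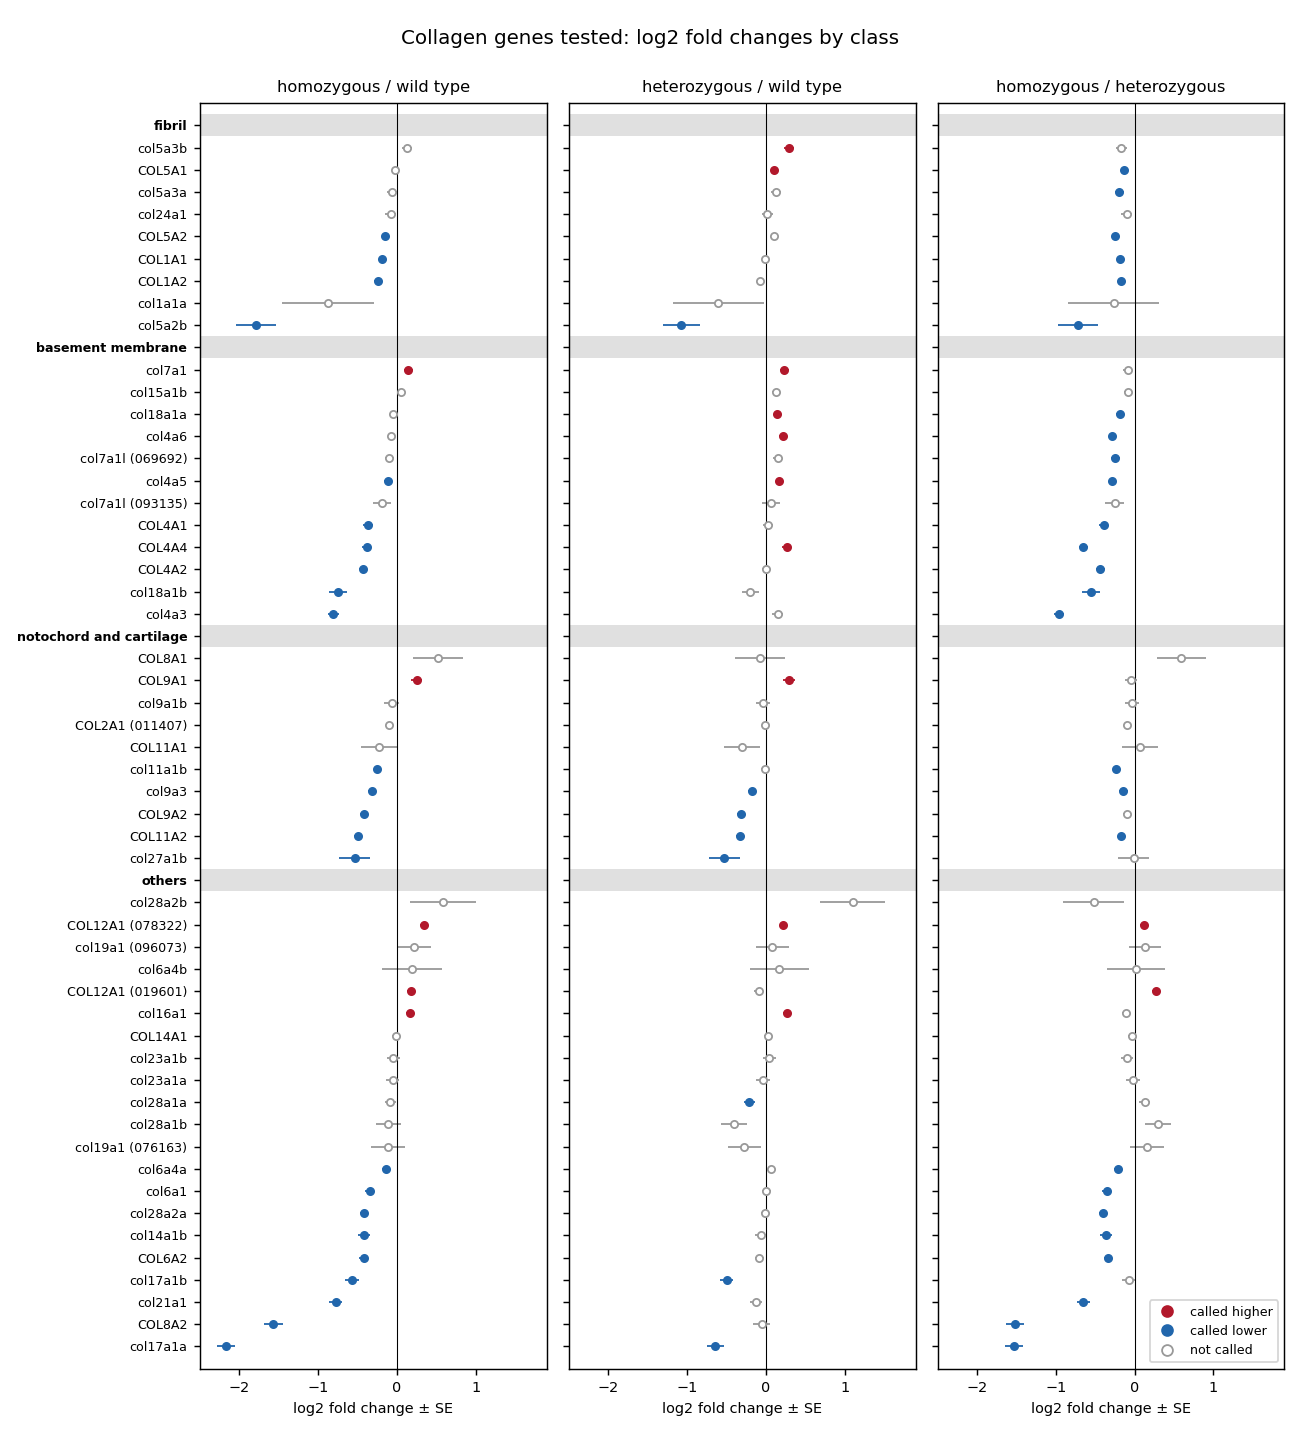
Log2 fold change ± SE of each of the 52 tested collagen IDs in the 3 comparisons, grouped by class and sorted within a class by homozygous against wild type. Filled points were called (red higher, blue lower), open points were not; blue points outnumber red ones in the panels with homozygous embryos on top, 24 to 5 and 26 to 2.

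By class, the homozygous against wild-type comparison gave 0 higher and 4 lower of 9 fibril genes, 1 higher and 6 lower of 12 basement membrane genes, 1 higher and 5 lower of 10 notochord and cartilage genes, and 3 higher and 9 lower of 21 others. In heterozygous against wild-type embryos the counts were 2 higher and 1 lower for fibril genes, 5 higher and 0 lower for basement membrane genes, 1 higher and 4 lower for notochord and cartilage genes, and 2 higher and 3 lower for others. Over all genes tested that comparison called 15.5% higher and 14.4% lower, against 23.5 and 21.1% in homozygous against wild-type embryos; with 9 to 21 genes a class, the class counts are given as a description. Homozygous against heterozygous embryos gave 0 higher and 6 lower, 0 higher and 9 lower, 0 higher and 3 lower, and 2 higher and 8 lower in the same order of classes. The shares called were 66.7, 75, 30 and 47.6%, beside 39.8% of all genes tested, of which 20.4% were higher and 19.4% lower. The notochord and cartilage share thus lay below that of all genes. Counting the type II, XI and XXVII genes with the fibril class moved the lower counts in homozygous against wild-type embryos to 7 of 14 fibril genes and 2 of 5 notochord and cartilage genes.

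The summed level of a class put these counts on the scale of transcript amount, without correction for gene length. Fibril genes summed to 4060.1 ± 59.4 CPM in homozygous, 4592 ± 218 CPM in heterozygous and 4582 ± 141 CPM in wild-type pools (SD, n = 3 each), so that homozygous pools were the low ones. Basement membrane genes summed to 1961 ± 63.3, 2327 ± 49.3 and 2075 ± 66.6 CPM in homozygous, heterozygous and wild-type pools. Heterozygous pools stood highest in that class. Notochord and cartilage genes summed to 2193 ± 13.2, 2381 ± 20.5 and 2645 ± 91.9 CPM in the same order. The remaining genes summed to 1930.3 ± 56.5, 2054 ± 42.7 and 2004 ± 44.8 CPM. The classes therefore ordered the genotypes differently. The heterozygous sum lay near the wild-type sum for fibril genes, above it for basement membrane genes, and between the homozygous and wild-type sums for notochord and cartilage genes. These sums rest mostly on their most abundant rows. The 3 highest held 79.7% of the fibril sum, 73.2% of the basement membrane sum and 66.3% of the notochord and cartilage sum. They held 63.5% of the sum of the remaining genes. Over all 57 IDs the homozygous sum was 0.897 times, and the heterozygous sum 1.00 times, the wild-type sum.

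**Figure D2:**
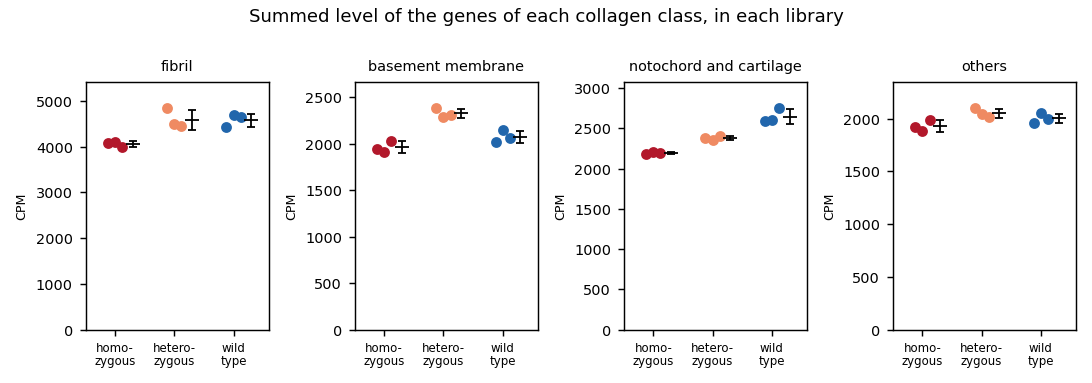
Summed CPM of each collagen class in every pool (points), with mean ± SD beside each genotype. The basement membrane sum is highest in heterozygous pools and the notochord and cartilage sum averages 2193 CPM in homozygous, 2381 CPM in heterozygous and 2645 CPM in wild-type pools.

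Among the fibril collagens, the type I genes were modestly lower in homozygous embryos than in both other groups. COL1A1, the main chain of type I collagen, had 1377.5, 1409.9 and 1379 CPM in homozygous pools, 1684, 1524.5 and 1512 CPM in heterozygous pools, and 1527, 1619 and 1606 CPM in wild-type pools. Every homozygous pool lay below every heterozygous and wild-type pool, and the heterozygous and wild-type pools overlapped. For COL1A1 the log2 fold change was -0.19 ± 0.04 (edgeR adjusted p = 0.00219) in homozygous against wild-type embryos and -0.18 ± 0.04 (edgeR adjusted p = 0.00366) against heterozygous siblings. COL1A2, the second chain of the type I helix, had 1302, 1278 and 1264 CPM in homozygous pools, 1545, 1428 and 1358 CPM in heterozygous pools, and 1479, 1552 and 1525 CPM in wild-type pools. Its homozygous pools again lay below all others, with a log2 fold change of -0.25 ± 0.05 (edgeR adjusted p = 0.000276) against wild type and -0.17 ± 0.05 (edgeR adjusted p = 0.00557) against heterozygous siblings. Neither gene was called in heterozygous against wild-type embryos, where the values were -0.01 for COL1A1 and -0.07 for COL1A2.

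The paralogue col1a1a varied widely between homozygous pools. It had 74.2, 144 and 22.7 CPM in homozygous pools, 89.2, 86.7 and 116 CPM in heterozygous pools, and 133.6, 154.5 and 156 CPM in wild-type pools. The homozygous pools ran from below every other pool up to the level of the wild-type pools, and the log2 fold change against wild type was -0.87 ± 0.58 (edgeR adjusted p = 0.278). The heterozygous pools all lay below the wild-type pools, yet col1a1a was called in that comparison in 1 alternative only, the fit on the 6 pools compared (adjusted p = 0.0194 there, 0.497 here). How the counting treated reads shared by close paralogues is not given in the sources used here, so the split between type I rows is uncertain.

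Type V collagen starts fibrils and sets their width, and its genes differed in direction. col5a2b had 0.542, 0.597 and 0.374 CPM in homozygous pools, 0.68, 0.979 and 0.869 CPM in heterozygous pools, and 1.81, 1.85 and 1.65 CPM in wild-type pools. The 3 genotypes did not overlap, and homozygous pools were lowest. For col5a2b the log2 fold change was -1.79 ± 0.25 (edgeR adjusted p = 1.52e-05) in homozygous against wild-type, -1.07 ± 0.24 (edgeR adjusted p = 0.00248) in heterozygous against wild-type and -0.72 ± 0.25 (edgeR adjusted p = 0.032) in homozygous against heterozygous embryos. The last call was lost in 6 of 18 alternatives, including leaving out homozygous pool 1 or 3 or heterozygous pool 2 or 3 (adjusted p of 0.059 to 0.123). COL5A2, from the paralogous row of the same chain, had 339.5, 329 and 343.5 CPM in homozygous pools, 396, 398 and 409 CPM in heterozygous pools, and 359, 369 and 391 CPM in wild-type pools. Its differences were smaller, -0.15 ± 0.04 (edgeR adjusted p = 0.0106) in homozygous against wild-type and -0.25 ± 0.04 (edgeR adjusted p = 0.000176) in homozygous against heterozygous embryos. All heterozygous pools of COL5A2 lay above all wild-type pools, but that difference of 0.10 ± 0.04 (edgeR adjusted p = 0.0846) was not called. It was called in 1 alternative only, without wild-type pool 3 (adjusted p = 0.0167).

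Other type V chains were higher in heterozygous embryos. COL5A1 had 570.1, 559 and 571 CPM in homozygous pools, 635, 614.5 and 612 CPM in heterozygous pools, and 567, 595 and 565 CPM in wild-type pools. Heterozygous pools lay above the rest, while homozygous and wild-type pools overlapped. For COL5A1 the heterozygous against wild-type difference was 0.11 ± 0.04 (edgeR adjusted p = 0.0491), a call lost in 12 of 18 alternatives, 8 of them the loss of a single pool of any genotype (adjusted p up to 0.165; wild-type pool 2 was the exception). Against heterozygous siblings the homozygous value was -0.13 ± 0.04 (edgeR adjusted p = 0.0136), which was not called without homozygous pool 2 or heterozygous pool 1 (adjusted p of 0.0623 and 0.063). col5a3b had 339, 325 and 339 CPM in homozygous pools, 413, 360.1 and 353 CPM in heterozygous pools, and 277, 317 and 325 CPM in wild-type pools. Wild-type pools were lowest in this gene, with a heterozygous against wild-type log2 fold change of 0.29 ± 0.07 (edgeR adjusted p = 0.00365). The remaining fibril rows, col5a3a and col24a1, were not called in either comparison with wild type. col5a3a was lower in homozygous than in heterozygous embryos at -0.19 ± 0.06 (edgeR adjusted p = 0.0158), a call lost without homozygous pool 2 or heterozygous pool 3 (adjusted p of 0.0611 and 0.114).

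Summed fibroblast markers were lowest in homozygous pools, as the fibril sum was. Of 16 listed sclerotome and fibroblast names, 8 matched the table, in 9 rows that were all detected, and the others were not analysed. These rows summed to 317 to 319 CPM in homozygous, 434 to 442 CPM in heterozygous and 449.5 to 486 CPM in wild-type pools. Of these 9, 0 were higher and 6 lower in homozygous against wild-type embryos, 0 higher and 1 lower in heterozygous against wild-type embryos, and 1 higher and 6 lower in homozygous against heterozygous embryos. Their shares called were 66.7, 11.1 and 77.8%, beside 44.5, 29.8 and 39.8% of all genes tested. LUM and FMOD, given with values under other observations, were among these rows. They made up much of the homozygous against wild-type difference in the sum. The part of these markers in the fibril result was not tested.

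Among basement membrane collagens the type IV chains were lower in homozygous embryos than in heterozygous siblings, all 6 of them called. Over all genes tested, 19.4% were called lower in that comparison. The chains are known in mammals to assemble in fixed trios, COL4A1 with COL4A2, COL4A3 with COL4A4 and COL4A5, and COL4A5 with COL4A6. In the RefSeq annotation of the GRCz12tu assembly, the zebrafish genes of each of the pairs COL4A1 and COL4A2, col4a3 and COL4A4, and col4a5 and col4a6 lie next to each other, with 0 coding genes between them. The values are given below by pair.

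col4a3 showed the widest type IV difference. It had 15.4, 17 and 14.5 CPM in homozygous pools, 30.8, 29.5 and 30.9 CPM in heterozygous pools, and 25.7, 28.6 and 28 CPM in wild-type pools. Homozygous pools were far below both other groups, and heterozygous pools lay above wild-type pools. For col4a3 the log2 fold change was -0.81 ± 0.07 (edgeR adjusted p = 4.63e-08) in homozygous against wild-type and -0.96 ± 0.07 (edgeR adjusted p = 7.46e-09) in homozygous against heterozygous embryos, and the heterozygous against wild-type value of 0.15 ± 0.07 (edgeR adjusted p = 0.109) was not called. Its neighbour COL4A4 had 20.5, 19.7 and 21.1 CPM in homozygous pools, 31.4, 32.6 and 32 CPM in heterozygous pools, and 26.4, 27.3 and 26.4 CPM in wild-type pools. The genotypes did not overlap, with heterozygous pools highest and homozygous pools lowest. For COL4A4 the log2 fold changes were -0.39 ± 0.06 (edgeR adjusted p = 2.73e-05) in homozygous against wild-type, 0.26 ± 0.06 (edgeR adjusted p = 0.00174) in heterozygous against wild-type and -0.65 ± 0.06 (edgeR adjusted p = 7.87e-08) in homozygous against heterozygous embryos.

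COL4A1 and COL4A2, the chains of the basement membranes found around most tissues and vessels, were level in heterozygous and wild-type embryos. COL4A1 had 37.9, 40.5 and 44.2 CPM in homozygous pools, 54, 53.1 and 53.9 CPM in heterozygous pools, and 52.8, 55.7 and 49.7 CPM in wild-type pools. COL4A2 had 30.5, 30.6 and 31.5 CPM in homozygous pools, 39.8, 42.4 and 42.9 CPM in heterozygous pools, and 42.5, 40.3 and 42.2 CPM in wild-type pools. In both genes the homozygous pools lay below all other pools and the other genotypes overlapped. For COL4A1 the log2 fold change was -0.37 ± 0.06 (edgeR adjusted p = 9.62e-05) in homozygous against wild-type and -0.39 ± 0.06 (edgeR adjusted p = 5.76e-05) in homozygous against heterozygous embryos. For COL4A2 these values were -0.43 ± 0.05 (edgeR adjusted p = 4.16e-06) and -0.43 ± 0.05 (edgeR adjusted p = 4.84e-06). Heterozygous against wild-type values were 0.02 and 0.00, with adjusted p of 0.805 and 0.996.

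The pair col4a5 and col4a6 was highest in heterozygous embryos. col4a5, which is known in zebrafish from the dragnet mutant in which retinal axons miss their layer in the tectum, had 592, 588 and 622 CPM in homozygous pools, 741, 709 and 749 CPM in heterozygous pools, and 625, 671 and 661 CPM in wild-type pools. col4a6 had 324, 323 and 337 CPM in homozygous pools, 410.3, 396 and 390.0 CPM in heterozygous pools, and 339, 368 and 326 CPM in wild-type pools. Heterozygous pools stood above all others in both genes, and homozygous and wild-type pools overlapped in col4a6. For col4a5 the log2 fold change was 0.17 ± 0.04 (edgeR adjusted p = 0.00666) in heterozygous against wild-type and -0.29 ± 0.04 (edgeR adjusted p = 4.12e-05) in homozygous against heterozygous embryos. For col4a6 the same comparisons gave 0.21 ± 0.05 (edgeR adjusted p = 0.00279) and -0.28 ± 0.05 (edgeR adjusted p = 0.000137). Against wild type the homozygous value of col4a5, -0.12 ± 0.04 (edgeR adjusted p = 0.033), lost its call without homozygous pool 1 or 2 or wild-type pool 2 or 3 (adjusted p of 0.0586 to 0.13), and col4a6 was not called at -0.07.

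**Figure D3:**
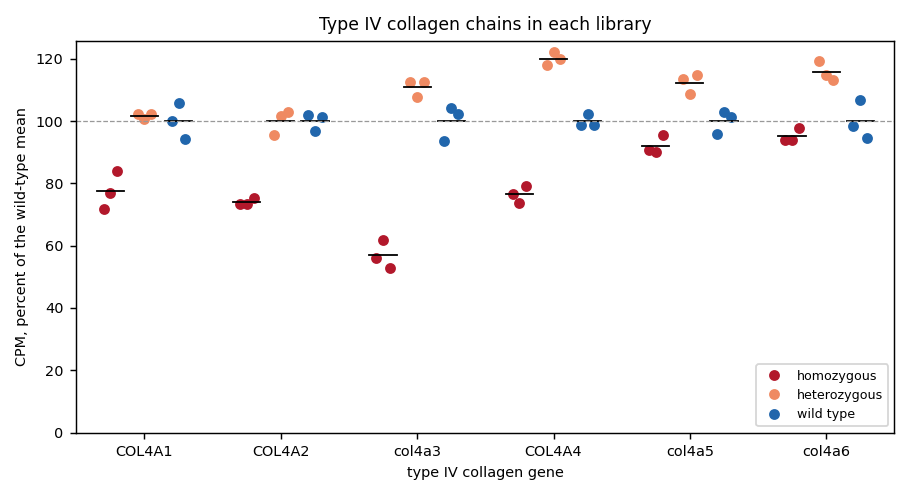
Level of the 6 type IV collagen genes in every pool, as a percentage of the gene's wild-type mean (dashed line at 100); bars mark the mean of the 3 pools of a genotype. Homozygous means lie between 56.9 and 95.2% and heterozygous means from the wild-type level up to 120.0%.

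The other basement membrane collagens were less uniform. col18a1a, a type XVIII gene whose product carries the endostatin fragment, had 501, 493 and 519 CPM in homozygous pools, 596, 568 and 562.5 CPM in heterozygous pools, and 511, 538 and 517.5 CPM in wild-type pools. Heterozygous pools lay above the rest, with a log2 fold change of 0.14 ± 0.04 (edgeR adjusted p = 0.0175) against wild type, and homozygous pools were lower than heterozygous ones by a log2 fold change of -0.19 ± 0.04 (edgeR adjusted p = 0.00138). The first of these calls was lost without heterozygous pool 1 or wild-type pool 1 (adjusted p of 0.0676 and 0.0891). Its paralogue col18a1b had 3.7, 4.08 and 3.97 CPM in homozygous pools, 5.72, 5.4 and 6.12 CPM in heterozygous pools, and 6.32, 5.95 and 7.46 CPM in wild-type pools. Here the homozygous pools were the low ones, at -0.75 ± 0.11 (edgeR adjusted p = 3.74e-05) against wild type and -0.55 ± 0.11 (edgeR adjusted p = 0.000759) against heterozygous siblings. col15a1b, the type XV gene, was not called in any comparison. Its heterozygous against wild-type value of 0.13 ± 0.05 (edgeR adjusted p = 0.0515) lay at the threshold and was called in 4 of 18 alternatives, DESeq2, the 1 CPM filter, halved counts and the fit without wild-type pool 2.

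Type VII collagen forms the anchoring fibrils that tie the epidermal basement membrane to the tissue below. Of its 3 rows, col7a1 had 241, 219 and 238 CPM in homozygous pools, 267, 243 and 234 CPM in heterozygous pools, and 199.9, 219 and 214 CPM in wild-type pools. Wild-type pools lay below heterozygous pools, and homozygous pools reached down to the highest wild-type pool. For col7a1 the log2 fold change was 0.23 ± 0.06 (edgeR adjusted p = 0.00446) in heterozygous against wild-type embryos. The homozygous against wild-type value, 0.14 ± 0.06 (edgeR adjusted p = 0.0481), lost its call in 11 of 18 alternatives, among them DESeq2 and limma-voom and the loss of homozygous pool 1 or 3, heterozygous pool 2 or wild-type pool 1 or 3 (adjusted p up to 0.204). Both col7a1l rows had values below 0 in homozygous against wild-type embryos, -0.10 and -0.19, and neither was called, except without homozygous pool 3 (adjusted p of 0.0105 and 0.0152). Against heterozygous siblings, the homozygous value of col7a1l ENSDARG00000069692 was lower at -0.25 ± 0.06 (edgeR adjusted p = 0.00252), a call that held in 18 of 18 alternatives. For col7a1l ENSDARG00000093135 it was -0.25 ± 0.12 (edgeR adjusted p = 0.0989), called without homozygous pool 3 alone (adjusted p = 0.00638).

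Summed vascular markers were lowest in homozygous pools, as the type IV genes were except col4a6, whose homozygous and wild-type pools overlapped. Of 10 listed names 7 matched, in 8 rows, which summed to 193.0 to 193.2 CPM in homozygous, 220.2 to 238 CPM in heterozygous and 232 to 245 CPM in wild-type pools. Of 7 tested, 1 was higher and 5 lower in homozygous against wild-type embryos, and 1 higher and 2 lower in heterozygous against wild-type embryos. Homozygous against heterozygous embryos gave 1 higher and 5 lower. The shares called were 85.7, 42.9 and 85.7%, beside 44.5, 29.8 and 39.8% of all genes tested. None of the 8 markers was at 0 in every pool. Their part in the type IV result was not tested.

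In the notochord and cartilage class, COL11A2, COL9A2 and col9a3 were lower in both mutant groups than in wild-type embryos. The type II row with enough counts for a test was not called. Type II is the main collagen of the notochord sheath and of cartilage. Its symbol COL2A1 stands for ENSDARG00000011407 and for ENSDARG00000069093, which had too few counts for a test. Which zebrafish paralogue each row is was not stated. COL2A1 (ENSDARG00000011407) had 719, 715 and 762 CPM in homozygous pools, 810.1, 763.5 and 769.7 CPM in heterozygous pools, and 759.8, 785 and 806 CPM in wild-type pools. Homozygous and wild-type pools overlapped slightly, and the log2 fold change of -0.10 ± 0.04 (edgeR adjusted p = 0.0706) was not called. This row lies at the threshold, since 9 of 18 alternatives called it. Among them were DESeq2, limma-voom and the fits without homozygous pool 3 or heterozygous pool 3 (adjusted p of 0.0224 to 0.17 over all 18). In heterozygous against wild-type embryos the value was -0.00.

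COL11A2, a chain of the type XI collagen that nucleates type II fibrils, had 364, 372 and 366 CPM in homozygous pools, 414, 409 and 417 CPM in heterozygous pools, and 518, 492 and 551 CPM in wild-type pools. The genotypes formed 3 separate steps, with wild-type pools highest. For COL11A2 the log2 fold change was -0.50 ± 0.04 (edgeR adjusted p = 7.69e-08) in homozygous against wild-type, -0.33 ± 0.04 (edgeR adjusted p = 3.03e-05) in heterozygous against wild-type and -0.17 ± 0.04 (edgeR adjusted p = 0.00533) in homozygous against heterozygous embryos. COL9A2, a chain of the type IX collagen that sits on the surface of type II fibrils, had 344, 358 and 343.5 CPM in homozygous pools, 362, 375 and 379.6 CPM in heterozygous pools, and 446, 445 and 502.5 CPM in wild-type pools. Both mutant groups lay below wild type, at -0.42 ± 0.05 (edgeR adjusted p = 2.49e-06) for homozygous and -0.32 ± 0.05 (edgeR adjusted p = 0.000105) for heterozygous embryos. The homozygous against heterozygous value of -0.09 was not called, although those pools did not overlap.

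col9a3, a further type IX chain, had 240.2, 258 and 249.6 CPM in homozygous pools, 267, 274.5 and 284 CPM in heterozygous pools, and 297, 296 and 339.6 CPM in wild-type pools. Its genotypes followed the same order as COL11A2, with log2 fold changes of -0.32 ± 0.05 (edgeR adjusted p = 0.000114) in homozygous against wild-type and -0.18 ± 0.05 (edgeR adjusted p = 0.0198) in heterozygous against wild-type embryos. The heterozygous call was lost without heterozygous pool 1 or 2 or wild-type pool 3 (adjusted p of 0.0627 to 0.0812). The homozygous against heterozygous value, -0.14 ± 0.05 (edgeR adjusted p = 0.0422), was lost without homozygous pool 1 or 3 or heterozygous pool 2 or 3 (adjusted p of 0.091 to 0.177). col11a1b, another type XI chain, followed a different order with 252.5, 256 and 260.4 CPM in homozygous pools, 310.4, 298 and 297 CPM in heterozygous pools, and 300.2, 313 and 302 CPM in wild-type pools. Only the homozygous pools were low in col11a1b, at -0.25 ± 0.04 (edgeR adjusted p = 9.26e-05) against wild type and -0.24 ± 0.04 (edgeR adjusted p = 0.000202) against heterozygous siblings.

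COL9A1 ran against the other type IX chains. It had 23.5, 22.7 and 21.1 CPM in homozygous pools, 24.7, 23.6 and 21.1 CPM in heterozygous pools, and 18.1, 19.5 and 19.1 CPM in wild-type pools. Wild-type pools were the lowest in this gene. For COL9A1 the log2 fold change was 0.25 ± 0.07 (edgeR adjusted p = 0.00968) in homozygous and 0.29 ± 0.07 (edgeR adjusted p = 0.00498) in heterozygous embryos against wild type; the homozygous call was lost without homozygous pool 1 (adjusted p = 0.0644). Its paralogue col9a1b was not called in any comparison, with values of -0.07 and -0.03. The neighbouring type IX and type XVI genes also differed in direction: COL9A2 and col16a1 have 0 coding genes between them in GRCz12tu, and col16a1 was higher in both mutant groups than in wild type.

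col27a1b, a fibril-forming collagen of cartilage and notochord, had 1.66, 1.63 and 1.92 CPM in homozygous pools, 1.54, 2.23 and 1.45 CPM in heterozygous pools, and 2.95, 2.47 and 2.13 CPM in wild-type pools. Its mutant groups overlapped each other, heterozygous pool 2 lay within the wild-type range, and the groups had log2 fold changes of -0.54 ± 0.19 (edgeR adjusted p = 0.0329) in homozygous and -0.53 ± 0.19 (edgeR adjusted p = 0.0492) in heterozygous embryos against wild type. The homozygous call was lost without homozygous pool 1 or 2 or wild-type pool 1 or 2 (adjusted p of 0.0671 to 0.135). The heterozygous one was lost in 9 of 18 alternatives, 6 of them the loss of a pool (homozygous 1 or 2, heterozygous 1 or 3, wild-type 1 or 2; adjusted p of 0.0534 to 0.185). COL11A1 and COL8A1 were not called; COL11A1 had 131, 114 and 91 CPM in homozygous pools, 84.3, 101 and 136 CPM in heterozygous pools, and 152, 132 and 110.2 CPM in wild-type pools, and those ranges overlapped.

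The summed notochord and cartilage markers ordered the genotypes as the class sum did, while single markers went both ways. Of 20 listed notochord names 14 matched, in 16 rows, which summed to 873 to 932 CPM in homozygous, 1003 to 1118 CPM in heterozygous and 1159 to 1274 CPM in wild-type pools. Of the 16, 1 was higher and 8 lower in homozygous against wild-type embryos, 0 higher and 7 lower in heterozygous against wild-type embryos, and 4 higher and 5 lower in homozygous against heterozygous embryos. The shares called were 56.2, 43.8 and 56.2%, beside 44.5, 29.8 and 39.8% of all genes tested. tbxta, the notochord transcription factor Brachyury, and CCN2, a matrix-associated growth factor, were among those higher in homozygous than in heterozygous embryos, at log2 fold changes of 0.22 and 0.91 (edgeR adjusted p = 0.0335 and 9.4e-07). Of 24 listed cartilage and cranial mesenchyme names 16 matched, in 16 rows, which summed to 713 to 746 CPM in homozygous, 828 to 907 CPM in heterozygous and 927 to 960.1 CPM in wild-type pools. Of 14 tested there, 2 were higher and 7 lower in homozygous, 2 higher and 4 lower in heterozygous against wild-type embryos, and 3 higher and 6 lower, with a median of 0.08, in homozygous against heterozygous embryos. In this list 64.3, 42.9 and 64.3% were called, beside the same shares of all genes. No marker of either list was at 0 in every pool, and their part in the collagen result was not tested.

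The widest collagen difference of all lay among the other types, in col17a1a. Type XVII collagen is a transmembrane protein of hemidesmosomes, the junctions that hold basal epidermal cells to the basement membrane. col17a1a had 4.11, 3.83 and 4.07 CPM in homozygous pools, 12.5, 9.4 and 12.8 CPM in heterozygous pools, and 16.4, 18.4 and 19.1 CPM in wild-type pools. The genotypes did not overlap, with homozygous pools lowest and wild-type pools highest. For col17a1a the log2 fold change was -2.17 ± 0.11 (edgeR adjusted p = 9.1e-11) in homozygous against wild-type, -0.64 ± 0.10 (edgeR adjusted p = 0.0002) in heterozygous against wild-type and -1.53 ± 0.11 (edgeR adjusted p = 1.22e-08) in homozygous against heterozygous embryos, so that homozygous embryos held 0.222 times the wild-type level. Its paralogue col17a1b had 7.9, 7.73 and 8.23 CPM in homozygous pools, 8.87, 8.17 and 7.96 CPM in heterozygous pools, and 12, 10.8 and 12.5 CPM in wild-type pools. Here both mutant groups lay below wild type and overlapped each other, with log2 fold changes of -0.57 ± 0.09 (edgeR adjusted p = 4.74e-05) in homozygous and -0.50 ± 0.09 (edgeR adjusted p = 0.000368) in heterozygous embryos.

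Epidermal markers gave mixed values beside type XVII. In both comparisons with homozygous embryos, more of them were lower than higher. Of 17 listed basal epidermis and fin fold names 13 matched, in 15 rows, which summed to 5026 to 5353 CPM in homozygous, 5229 to 5316 CPM in heterozygous and 4514 to 4581 CPM in wild-type pools, a sum made up mostly of krt4, a keratin also found in the surface layer. Of its 14 tested members, 2 were higher and 6 lower in homozygous against wild-type embryos, and 3 higher and 0 lower in heterozygous against wild-type embryos. Homozygous against heterozygous embryos gave 1 higher and 6 lower. The shares called were 57.1, 21.4 and 50%, beside 44.5, 29.8 and 39.8% of all genes tested. None of its 15 members was at 0 in every pool. The part of these cells in the type XVII result was not tested.

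COL8A2 and col21a1 were low in homozygous embryos alone. COL8A2, a network-forming short-chain collagen known from the corneal Descemet membrane in mammals, had 2.08, 2.17 and 2.52 CPM in homozygous pools, 6.09, 6.08 and 7.09 CPM in heterozygous pools, and 6.68, 6.77 and 6.54 CPM in wild-type pools. For COL8A2 the log2 fold change was -1.57 ± 0.12 (edgeR adjusted p = 8.83e-09) in homozygous against wild-type and -1.51 ± 0.12 (edgeR adjusted p = 1.81e-08) in homozygous against heterozygous embryos. Heterozygous and wild-type pools overlapped in COL8A2, at -0.05 ± 0.11 (edgeR adjusted p = 0.752). col21a1, a collagen of the group that decorates fibrils, had 7.22, 7.13 and 7.06 CPM in homozygous pools, 11.1, 10.8 and 11.7 CPM in heterozygous pools, and 11.7, 12.5 and 12.6 CPM in wild-type pools. Homozygous pools again stood apart, with -0.78 ± 0.08 (edgeR adjusted p = 5.04e-07) against wild type and -0.65 ± 0.08 (edgeR adjusted p = 4.99e-06) against heterozygous siblings.

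Type XXVIII, XII, XVI and VI genes gave smaller differences in both directions. col28a2a had 387, 374 and 431 CPM in homozygous pools, 534, 525 and 523 CPM in heterozygous pools, and 515, 528 and 549 CPM in wild-type pools. Its homozygous pools lay below the other 2 genotypes, at -0.42 ± 0.05 (edgeR adjusted p = 2.9e-06) against wild type and -0.41 ± 0.05 (edgeR adjusted p = 4.72e-06) against heterozygous siblings. Type VI collagen forms beaded filaments around muscle fibres and other cells, and col6a1 and COL6A2 encode chains of the same helix. col6a1 had 101, 103 and 96.7 CPM in homozygous pools, 132, 133 and 119.9 CPM in heterozygous pools, and 123, 126 and 134 CPM in wild-type pools. COL6A2 had 62.3, 63 and 55.6 CPM in homozygous pools, 77.9, 77.1 and 74.4 CPM in heterozygous pools, and 79.7, 80.1 and 83.2 CPM in wild-type pools. Homozygous pools were the lowest in both, and the log2 fold changes against wild type were -0.35 ± 0.05 (edgeR adjusted p = 3.47e-05) for col6a1 and -0.42 ± 0.05 (edgeR adjusted p = 5.37e-06) for COL6A2. These genes have 1 coding gene between them in GRCz12tu.

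Skeletal muscle markers, of which 10 of 15 listed names matched, in 11 rows, summed to 16950.4 to 17864 CPM in homozygous, 21536 to 21982 CPM in heterozygous and 24344 to 25600 CPM in wild-type pools. Of 10 tested, 1 was higher and 6 lower in homozygous, and 0 higher and 4 lower in heterozygous against wild-type embryos. Between the mutant groups 2 were higher and 5 lower. Called shares were 70, 40 and 70%, beside 44.5, 29.8 and 39.8% of all genes tested. No marker of that list was at 0 in every pool, and its part in the type VI values was not tested.

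Type XII collagen, which links fibrils to their surroundings, was the clearest exception to the lower values. COL12A1 (ENSDARG00000078322) had 443, 447 and 458 CPM in homozygous pools, 426, 411 and 404 CPM in heterozygous pools, and 354, 375 and 336 CPM in wild-type pools. Homozygous pools were highest and wild-type pools lowest, without overlap. For this row the log2 fold change was 0.34 ± 0.05 (edgeR adjusted p = 1.06e-05) in homozygous and 0.22 ± 0.05 (edgeR adjusted p = 0.00148) in heterozygous embryos against wild type. Between the mutant groups it was 0.12 ± 0.05 (edgeR adjusted p = 0.0461), a call lost in 10 of 18 alternatives, 6 of them the loss of any homozygous pool, heterozygous pool 2 or 3, or wild-type pool 1 (adjusted p of 0.0558 to 0.127). The other COL12A1 row, ENSDARG00000019601, had 416.5, 397.5 and 435 CPM in homozygous pools, 359.6, 343 and 335 CPM in heterozygous pools, and 366.5, 396 and 344 CPM in wild-type pools. It was higher in homozygous embryos than in heterozygous siblings at 0.27 ± 0.05 (edgeR adjusted p = 0.000585). Against wild type its value was 0.17 ± 0.05 (edgeR adjusted p = 0.0123), not called without homozygous pool 3 or wild-type pool 3 (adjusted p of 0.0567 and 0.0591).

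col16a1 had 163, 161 and 165.5 CPM in homozygous pools, 183, 173 and 173 CPM in heterozygous pools, and 139, 148 and 152 CPM in wild-type pools. Wild-type pools were lowest and heterozygous pools highest. For col16a1 the log2 fold change was 0.16 ± 0.05 (edgeR adjusted p = 0.0101) in homozygous and 0.27 ± 0.05 (edgeR adjusted p = 0.000331) in heterozygous embryos against wild type; the homozygous call was lost without wild-type pool 1 (adjusted p = 0.0598). Type XIV gave an example of paralogues that differed: col14a1b was lower at -0.42 ± 0.08 (edgeR adjusted p = 0.000333) in homozygous against wild-type embryos, whereas COL14A1 had a value of -0.01 and was not called. col6a4a, of type VI, was lower in homozygous embryos at -0.15 ± 0.05 (edgeR adjusted p = 0.0148) against wild type, a call lost without homozygous pool 1 or wild-type pool 2 (adjusted p of 0.0503 and 0.0922). col28a1a was lower in heterozygous against wild-type embryos at -0.21 ± 0.07 (edgeR adjusted p = 0.0268), a call lost without heterozygous pool 2 or wild-type pool 2 (adjusted p of 0.122 and 0.123). col23a1a, col23a1b, both col19a1 rows, col28a1b, col28a2b and col6a4b were not called in any comparison. For col28a2b the heterozygous against wild-type value of 1.1 ± 0.41 (edgeR adjusted p = 0.0515) lay at the threshold and was called in 5 of 17 alternatives, limma-voom, the replicate block, halved counts and the fits without heterozygous pool 3 or wild-type pool 2.

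**Figure D4:**
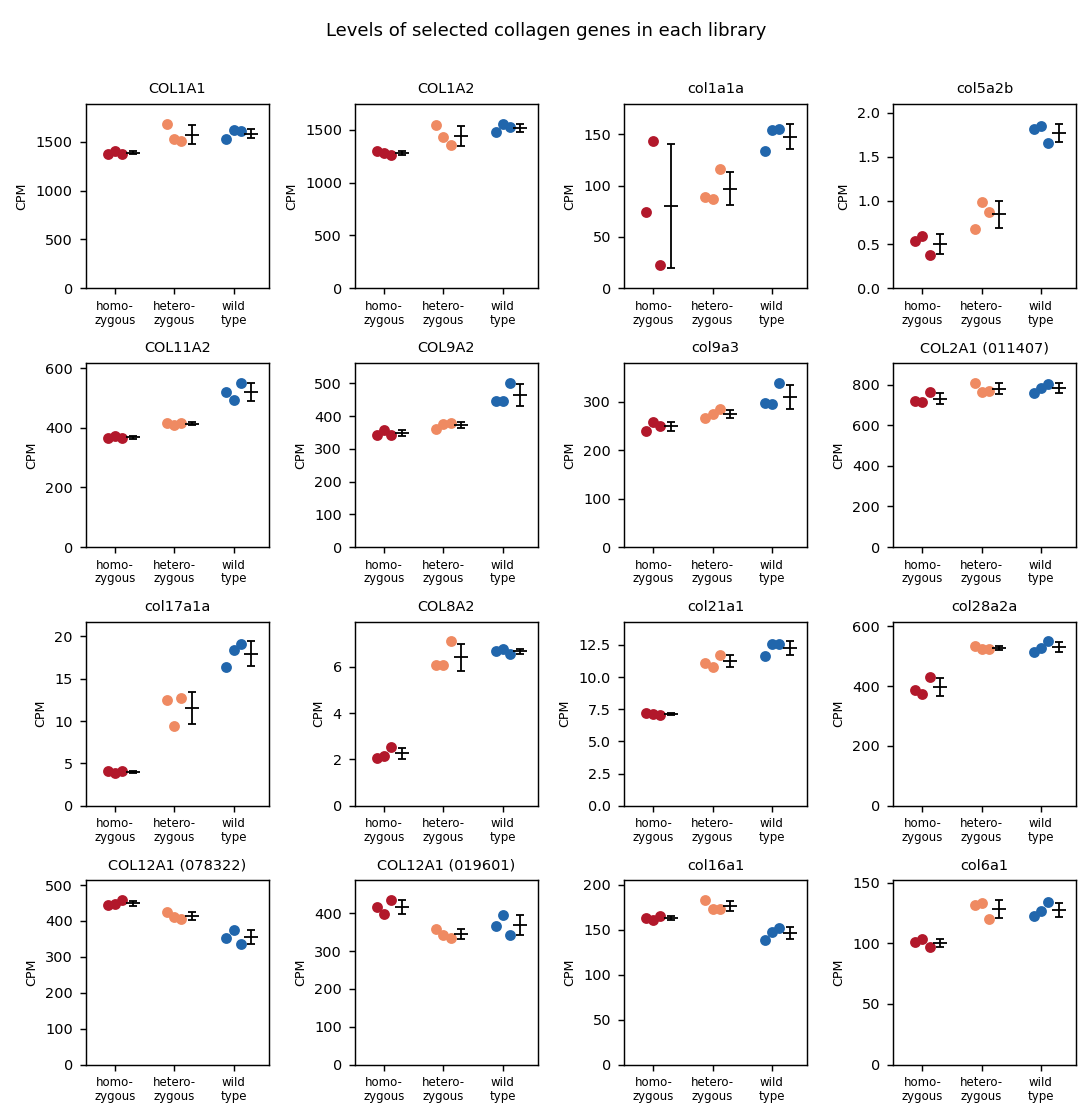
CPM of 16 collagen genes in every pool (points), with mean ± SD of 3 pools beside each genotype; a number in a panel title is the end of the Ensembl ID where a symbol has 2 rows. col17a1a and col5a2b are lowest in homozygous, intermediate in heterozygous and highest in wild-type pools, COL8A2, col21a1 and col28a2a are low in homozygous pools, both COL12A1 rows are highest there, and col1a1a is scattered.

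Of the 57 IDs, 5 had too few counts for a test. col8a1a, a gene known in zebrafish for its role in the notochord, was listed at 0 counts in all 9 pools. SEC13, a coat subunit of secretory carriers that cells in general use, was also listed at 0 in all 9 pools, and whether reads of such rows were lost in the annotation or the counting is not known, so that no upper limit is given for col8a1a. COL6A3 had counts in wild-type pool 1 alone. Both COL10A1 rows and the second COL2A1 row stayed at or below 0.135 CPM in every pool. Whether reads of the second COL2A1 row were lost is not known either.

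The genes that modify and fold collagen were mostly lower in homozygous embryos. Of 24 tested, 1 was higher and 14 lower in homozygous against wild-type embryos, 2 higher and 9 lower in heterozygous against wild-type, and 1 higher and 9 lower in homozygous against heterozygous embryos. These are 62.5, 45.8 and 41.7%, beside 44.5, 29.8 and 39.8% of all genes tested. The median log2 fold changes were -0.34, -0.12 and -0.20 in these comparisons, beside 0.02, 0.00 and 0.01 over all genes. P4HA1, a catalytic subunit of the prolyl hydroxylase that stabilizes the helix, had 1.85, 1.04 and 2.27 CPM in homozygous pools, 1.61, 1.76 and 2.03 CPM in heterozygous pools, and 22.5, 9.62 and 15.4 CPM in wild-type pools. Both mutant groups were far below wild type and overlapped each other. For P4HA1 the log2 fold change was -3.22 ± 0.40 (edgeR adjusted p = 0.0007) in homozygous and -3.13 ± 0.40 (edgeR adjusted p = 0.00143) in heterozygous embryos against wild type. P4HA2, a related isoform of that subunit, had 18.1, 16.3 and 20.6 CPM in homozygous pools, 19, 19.4 and 21 CPM in heterozygous pools, and 74.1, 63.1 and 63 CPM in wild-type pools. Its values were -1.87 ± 0.09 (edgeR adjusted p = 1.53e-10) in homozygous and -1.75 ± 0.08 (edgeR adjusted p = 2.75e-09) in heterozygous embryos, and the mutant groups again overlapped.

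PLOD1, a lysyl hydroxylase whose products anchor crosslinks, had 53.3, 51 and 58.4 CPM in homozygous pools, 64.2, 60.4 and 62.2 CPM in heterozygous pools, and 116, 112 and 123.5 CPM in wild-type pools. For PLOD1 the log2 fold change was -1.11 ± 0.06 (edgeR adjusted p = 6.73e-11) in homozygous and -0.91 ± 0.06 (edgeR adjusted p = 6.81e-09) in heterozygous embryos against wild type. colgalt2a, a galactosyltransferase for hydroxylysine, was lower at -1.03 ± 0.12 (edgeR adjusted p = 2.44e-06) and -0.74 ± 0.12 (edgeR adjusted p = 0.000174) in the same comparisons. The 2 rows of SERPINH1, the collagen chaperone Hsp47, differed in pattern. The row ENSDARG00000019949 had 310.3, 303 and 313 CPM in homozygous pools, 137, 177 and 178.5 CPM in heterozygous pools, and 320.2, 333 and 400.1 CPM in wild-type pools. Heterozygous pools were far the lowest, at -1.10 ± 0.12 (edgeR adjusted p = 0.000363) against wild type. The homozygous against heterozygous value was 0.91 ± 0.12 (edgeR adjusted p = 0.00053), the 1 higher call of this list in that comparison. Homozygous pools also lay below all wild-type pools. Their value of -0.18 ± 0.12 (edgeR adjusted p = 0.25) was called only in the fit on the pools compared and without heterozygous pool 1 (adjusted p of 0.0424 and 0.0421). The row ENSDARG00000075954 had 73.6, 71.1 and 80.7 CPM in homozygous pools, 116, 122.5 and 105 CPM in heterozygous pools, and 144, 149 and 159 CPM in wild-type pools. This row stepped down over the genotypes, at -1.01 ± 0.06 (edgeR adjusted p = 9.86e-10) in homozygous and -0.40 ± 0.06 (edgeR adjusted p = 0.000121) in heterozygous embryos against wild type.

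Secretion genes had small differences. Of 14 tested, 0 were higher and 4 lower in homozygous against wild-type embryos, 0 higher and 4 lower in heterozygous against wild-type embryos, and 3 higher and 2 lower between the mutant groups. The shares called, 28.6, 28.6 and 35.7%, were below or near those of all genes tested (44.5, 29.8 and 39.8%). CREB3L1, a transcription factor known to drive secretory genes, was lower at -0.40 ± 0.07 (edgeR adjusted p = 0.000188) in homozygous against wild-type embryos. mia3, which loads bulky collagen into carriers, was lower in both mutant groups, at -0.38 ± 0.05 (edgeR adjusted p = 2.61e-06) and -0.27 ± 0.05 (edgeR adjusted p = 0.000222). mia2, a relative of mia3 at the same exit sites, was lower at -0.21 ± 0.05 (edgeR adjusted p = 0.00471) and -0.25 ± 0.05 (edgeR adjusted p = 0.00181). SEC24D, a coat subunit of those carriers that zebrafish need for cartilage collagen, was lower at -0.33 ± 0.06 (edgeR adjusted p = 0.000486) in heterozygous embryos. Its homozygous value of -0.17 ± 0.06 (edgeR adjusted p = 0.0266) was lost without homozygous pool 2 or wild-type pool 1 or 2 (adjusted p of 0.0622 to 0.145).

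Processing and crosslinking genes went both ways. Of 19 tested, 6 were higher and 8 lower in homozygous against wild-type embryos, 3 higher and 1 lower in heterozygous against wild-type embryos, and 2 higher and 6 lower between the mutant groups. The shares called were 73.7, 21.1 and 42.1%, beside 44.5, 29.8 and 39.8% of all genes tested. LOXL1, a lysyl oxidase that crosslinks matrix, had 17.6, 18.4 and 18.2 CPM in homozygous pools, 35.4, 36.6 and 27.5 CPM in heterozygous pools, and 35.4, 34.2 and 37.2 CPM in wild-type pools. Homozygous pools alone were low, at -0.98 ± 0.09 (edgeR adjusted p = 4.68e-07) against wild type and -0.88 ± 0.09 (edgeR adjusted p = 1.8e-06) against heterozygous siblings. LOXL4 (ENSDARG00000025089), another lysyl oxidase, was higher in both mutant groups, at 1.26 ± 0.19 (edgeR adjusted p = 3.11e-05) and 1.42 ± 0.19 (edgeR adjusted p = 2.55e-05). Its mean over all pools was 2.30 CPM. The other LOXL4 row, ENSDARG00000105442, was not called in these comparisons, at 0.44 (edgeR adjusted p = 0.0775) and 0.22 (edgeR adjusted p = 0.436). PCOLCE2 (ENSDARG00000055575) and pcolceb, enhancers of procollagen trimming, were higher in homozygous embryos than in wild type, at 1.1 ± 0.12 (edgeR adjusted p = 1.04e-06) and 0.90 ± 0.21 (edgeR adjusted p = 0.00185). Both were also higher in heterozygous against wild-type embryos, at 0.60 ± 0.12 (edgeR adjusted p = 0.00126) and 0.73 ± 0.21 (edgeR adjusted p = 0.0126). The last call was lost without wild-type pool 2 (adjusted p = 0.0649). Between the mutant groups PCOLCE2 was called, at 0.50 ± 0.12 (edgeR adjusted p = 0.00223), and pcolceb was not. The means of these rows over all pools were 4.77 and 1.32 CPM. The more abundant pcolcea, at a mean of 36.1 CPM, was not called at 0.06 (edgeR adjusted p = 0.384). Nor was the other PCOLCE2 row, ENSDARG00000008450, at -0.30 (edgeR adjusted p = 0.373).

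Genes of collagen breakdown held the largest rise of these partner lists. Of 19 tested, 9 were higher and 4 lower in homozygous against wild-type embryos, 4 higher and 2 lower in heterozygous against wild-type embryos, and 6 higher and 2 lower between the mutant groups. The shares called were 68.4, 31.6 and 42.1%, of which the last pair lay near those of all genes tested (44.5, 29.8 and 39.8%). MMP9, a gelatinase that cleaves denatured collagen and type IV, had 264, 283 and 202 CPM in homozygous pools, 4.79, 8.1 and 7.09 CPM in heterozygous pools, and 4.61, 22.2 and 10.2 CPM in wild-type pools. Homozygous pools were far above all others, and heterozygous and wild-type pools overlapped. For MMP9 the log2 fold change was 4.29 ± 0.52 (edgeR adjusted p = 0.000756) in homozygous against wild-type and 5.24 ± 0.56 (edgeR adjusted p = 0.000437) in homozygous against heterozygous embryos. TIMP2 (ENSDARG00000075261), an inhibitor of these proteases, had 66.6, 76 and 72.2 CPM in homozygous pools, 13.9, 14.8 and 12.7 CPM in heterozygous pools, and 9.17, 10.7 and 11.2 CPM in wild-type pools. It was higher in homozygous embryos by 2.78 ± 0.08 (edgeR adjusted p = 2.79e-14) against wild type and in heterozygous embryos by 0.41 ± 0.08 (edgeR adjusted p = 0.00118). mmp13a, a collagenase, was higher in homozygous embryos at 2.43 ± 0.22 (edgeR adjusted p = 1.2e-07); its heterozygous value of 0.69 ± 0.23 (edgeR adjusted p = 0.0297) was lost in 6 of 18 alternatives, including the loss of heterozygous pool 1 or 3 or wild-type pool 1 or 3 (adjusted p of 0.0608 to 0.11). MRC2, a receptor that takes up collagen fragments, was lower in homozygous embryos at -0.89 ± 0.23 (edgeR adjusted p = 0.00483).

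**Figure D5:**
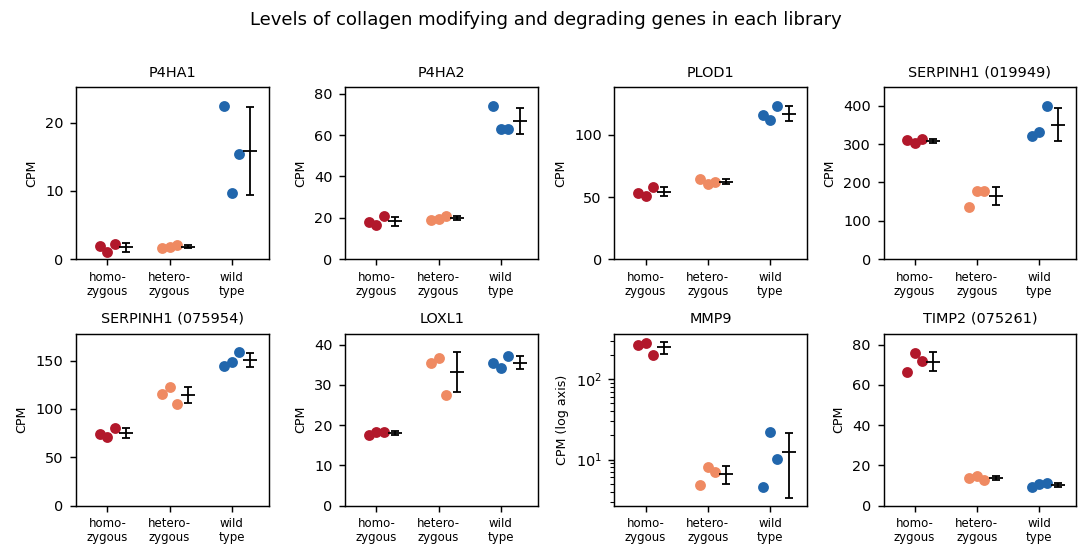
CPM of 8 genes that modify, fold, crosslink or degrade collagen in every pool (points), with mean ± SD beside each genotype; the MMP9 axis is logarithmic. P4HA1, P4HA2 and PLOD1 are low in both mutant groups, LOXL1 is low and MMP9 and TIMP2 are high in homozygous pools, and 1 SERPINH1 row is lowest in heterozygous pools.

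Collagen receptors were lower in homozygous embryos in 7 of 12 genes and higher in 2. In heterozygous against wild-type embryos 1 was higher and 4 lower, and between the mutant groups 1 was higher and 7 lower. The shares called were 75, 41.7 and 66.7%, beside 44.5, 29.8 and 39.8% of all genes tested. The collagen-binding integrin ITGA11 had 2 rows, with homozygous against wild-type values of -1.83 ± 0.24 (edgeR adjusted p = 8.99e-06) and -1.31 ± 0.16 (edgeR adjusted p = 4.84e-06). ITGA10, the chondrocyte integrin for type II collagen, was lower at -0.98 ± 0.19 (edgeR adjusted p = 0.0057); the heterozygous value of -0.73 ± 0.19 (edgeR adjusted p = 0.029) was lost without heterozygous pool 1 or 2 or any wild-type pool (adjusted p of 0.0639 to 0.0882). ITGB1 (ENSDARG00000022689), a row of their common beta partner, was lower at -1.26 ± 0.10 (edgeR adjusted p = 1.06e-08). The other 3 ITGB1 rows had smaller values of -0.33, -0.14 and 0.35, the last of them called higher. ITGA11 (ENSDARG00000007950) and ITGB1 (ENSDARG00000022689) were also lower in heterozygous against wild-type embryos. Their values there were -0.96 (edgeR adjusted p = 0.00434) and -0.33 (edgeR adjusted p = 0.011), and the other ITGA11 row was not called.

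Partners of collagen in the basement membrane went both ways. Of 20 tested, 8 were higher and 3 lower in homozygous against wild-type embryos, 4 higher and 2 lower in heterozygous against wild-type embryos, and 4 higher and 2 lower between the mutant groups. The shares called were 55, 30 and 30%, beside 44.5, 29.8 and 39.8% of all genes tested. lamc3, a laminin gamma chain, was lower at -0.84 ± 0.06 (edgeR adjusted p = 7.47e-09) in homozygous and -0.39 ± 0.06 (edgeR adjusted p = 0.000117) in heterozygous embryos. lama2 and LAMB1 (ENSDARG00000101209) were higher in homozygous embryos at 0.35 ± 0.07 (edgeR adjusted p = 0.000276) and 0.29 ± 0.05 (edgeR adjusted p = 7.47e-05). In heterozygous against wild-type embryos LAMB1 was also higher, at 0.17 (edgeR adjusted p = 0.00974), and lama2 was not called (edgeR adjusted p = 0.222). SPARC, a collagen-binding protein that shuttles with type IV collagen, was lower in homozygous against wild-type embryos at -0.23 ± 0.04 (edgeR adjusted p = 0.000306).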

How the data were processed

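PolyA RNA from 9 pools of zebrafish embryos was sequenced, 3 for each npc2 genotype. The authors deposited whole-number read counts per Ensembl gene ID; per the submitters' processing notes they used cutadapt 1.18, HISAT2 2.1.0 and featureCounts 1.6.3 with GRCz11 (danRer11). The sources used here give no annotation, strand setting or treatment of shared reads. Among deposited counts of 1 to 19, 96.3 to 97.5% per pool were even, so that a fragment may add 2 counts. Counts per pool (38564405 to 69360234) are not independent molecules.

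Symbols came from the names table, which covered 29201 of 32520 IDs. Counts were filtered with filterByExpr, scaled by TMM and tested with edgeR 4.0.16 (R 4.3.3; robust quasi-likelihood F test, genotype as the single term, 9 pools, Benjamini-Hochberg adjustment over 20375 genes within each of 3 comparisons). An SE was taken as the absolute log2 fold change over sqrt(F), an approximation. The test was also run on simulated counts in which far fewer genes changed than were called here, and no result rests on that run. Alternatives used limma 3.58.1 (voom), DESeq2 1.42.0, other scalings and filters, halved counts, a replicate block and each pool left out. Gene order came from RefSeq's GRCz12tu table, in which 40 members were matched by symbol.

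The collagen members, classes, partner genes and markers were chosen with earlier results of these data known. The rule for genes given in full took, per class, the 3 with the highest CPM and up to 4 with the widest called homozygous against wild-type difference at a mean of at least 1 CPM, the 2 widest called rises and falls in each other comparison, and up to 4 called in opposite directions by the heterozygous comparisons. Up to 4 genes per partner list followed the same measure. col1a1a, COL4A1, col7a1, col11a1b, col16a1, col6a1, COL6A2, col14a1b, SPARC, COL11A1 and SERPINH1, and members given by a log2 value alone, were added after their values were seen. No 2 pools of a genotype agreed within sampling noise. The values of 1 basement membrane gene counted in its list are not reported here.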

Additional observations from a re-analysis of the deposited data

How the results depend on the processing

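Across 18 alternatives, the count of collagens higher in homozygous against wild-type embryos was 3 to 5 with 1 pool left out (5 in the reported fit) and 4 to 5 otherwise; the lower count was 21 to 27 and 24 to 25 (24). In heterozygous against wild-type embryos the higher count was 8 to 12 and 9 to 12 (10), the lower count 6 to 8 and 7 to 8 (8). In homozygous against heterozygous embryos the lower count was 24 to 28 and 25 to 29 (26), and the higher count was 1 to 2 with 1 pool left out and 1, against 2, under RLE scaling, upper-quartile scaling, no low-count filter and halved counts. Under those settings COL12A1 (ENSDARG00000078322) lost its call (edgeR adjusted p of 0.0501 to 0.0665). Why its adjusted p moved was not tested. With types II, XI and XXVII counted as fibril collagens, the lower counts of the fibril class became 7 and 3 in homozygous and heterozygous against wild-type embryos, and those of the notochord and cartilage class became 2 and 2, and 1 between the mutant groups. No summed class ratio moved by more than the spread between pools. Over all tested collagens the sign reversed under at least 1 alternative in 29 of 156 gene comparisons, each of the 29 with 1 pool left out and 3 also under another setting; 0 of the 29 were called in the reported edgeR fit (lowest adjusted p = 0.596); the values below are those of genes described above. COL4A2 in heterozygous against wild-type embryos was -0.006 with DESeq2, -0.0063 with RLE and -0.0102 with upper-quartile scaling, and col6a1 was -0.0036 with the last. With 1 pool left out the heterozygous against wild-type values ranged from -0.0293 to 0.0331 for COL4A2, -0.0206 to 0.0434 for col6a1, -0.0605 to 0.0126 for COL1A1, -0.0312 to 0.0159 for COL2A1, -0.1768 to 0.0087 for LOXL1, -0.0363 to 0.0035 for col11a1b, -0.0314 to 0.0157 for col28a2a and -0.018 to 0.0672 for COL4A1. Homozygous against wild-type COL5A1 ranged from -0.0373 to 0.0001. Homozygous against heterozygous values ranged from -0.1199 to 0.2068 for col27a1b, -0.2924 to 0.191 for P4HA1, -0.1021 to 0.0025 for COL9A1 and -0.9797 to 0.1713 for col1a1a. Deviations of same-numbered homozygous and heterozygous pools correlated weakly, at 0.056 to 0.085, above the -0.076 to 0.027 of their differently numbered pools. Same-numbered pairs with wild-type pools lay at -0.024 to 0.021. As these values are small and no clutch is named, the numbers were not taken as pairs in the reported fit. With a replicate block the higher and lower counts were 4 and 24, 12 and 7, and 2 and 26, and col27a1b in homozygous against heterozygous embryos was 0.0029. Collagens under 1 CPM, such as col5a2b in mutants, rest on few reads.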

Other observations

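Further genes of the partner and marker lists, chosen after their values were seen, are given as values. Of the complex that hydroxylates single prolines of the helix at their 3 position, P3H1 and CRTAP were lower in homozygous against wild-type embryos, at -0.47 ± 0.08 (edgeR adjusted p = 0.000445) and -0.38 ± 0.06 (edgeR adjusted p = 2.38e-05), and its partner PPIB, at -0.06 (edgeR adjusted p = 0.437), was not called. Among the relatives of P3H1, P3H3 was lower at -0.90 ± 0.19 (edgeR adjusted p = 0.000766), P3H2 was higher at 0.57 ± 0.22 (edgeR adjusted p = 0.0439), and p3h4, at -0.14 (edgeR adjusted p = 0.175), was not called. The propeptide proteases ADAMTS3 and ADAMTS14 were lower at -0.60 ± 0.12 (edgeR adjusted p = 0.0012) and -0.50 ± 0.11 (edgeR adjusted p = 0.00131); of the 2 BMP1 rows, ENSDARG00000028053 was lower at -0.76 ± 0.11 (edgeR adjusted p = 3.13e-05) and ENSDARG00000028071 higher at 0.21 ± 0.05 (edgeR adjusted p = 0.00369). None of these genes other than P3H2 was called in heterozygous against wild-type embryos.

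LUM and FMOD encode small proteoglycans that coat collagen fibrils, and both are in the sclerotome and fibroblast list above. They are given as single genes, not as a group. LUM had 54.6, 50.7 and 53 CPM in homozygous pools, 87, 84.8 and 89.9 CPM in heterozygous pools, and 92.6, 90.6 and 94.2 CPM in wild-type pools, and FMOD (ENSDARG00000044895) had 75.2, 75.9 and 76.6 CPM in homozygous pools, 141, 134 and 140.4 CPM in heterozygous pools, and 139, 136.5 and 143 CPM in wild-type pools. The homozygous against wild-type log2 fold changes were -0.81 ± 0.05 (edgeR adjusted p = 5.78e-10) for LUM and -0.88 ± 0.04 (edgeR adjusted p = 6.16e-11) for FMOD. Heterozygous pools lay below all wild-type pools in LUM and overlapped them in FMOD. Their values of -0.08 and -0.01 against wild type were not called. acana, which encodes the cartilage proteoglycan aggrecan, had 5.66, 5.81 and 6.73 CPM in homozygous pools, 10.8, 9.83 and 11.4 CPM in heterozygous pools, and 19.3, 16.5 and 20.4 CPM in wild-type pools, without overlap between genotypes. Its log2 fold change was -1.63 ± 0.10 (edgeR adjusted p = 7.24e-10) in homozygous and -0.81 ± 0.10 (edgeR adjusted p = 8.89e-06) in heterozygous embryos against wild type. The homozygous value was the lowest of the cartilage and cranial mesenchyme list. That list ran from -1.63 to 1.45 in homozygous against wild-type embryos, with 2 genes called higher and 7 lower.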
